A study of Homo sapiens with 9 samples.

Results

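Of the 9 libraries of the series, 3 are described here: the control libraries, chosen by their sample titles and numbered as replicates 1, 2 and 3. Their RNA came from MDA-MB-468, a long-established human breast cancer line of the triple-negative class, which is defined by the lack of strong oestrogen, progesterone and ERBB2 receptor expression. The cells carried a scrambled short hairpin RNA in the lentiviral vector pLKO.1. The other 6 libraries carried hairpins against BBOX1 and are not described. The virus had been packaged in 293T cells, and the protocol gives puromycin at 2 µg/ml for vectors with that marker, so the cells are infected and selected cells and not untouched ones. All 3 were grown in medium with serum, and polyadenylated RNA was read in pairs of 100 bases. The labels call the samples triplicates without saying whether they were separate cultures, so each SD below measures the spread between these samples, which may be technical. The authors' name for the table calls its values batch-corrected, and how far that step changed the spread was not tested.

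Breast ducts are built from an inner luminal layer, marked by the keratins KRT8, KRT18 and KRT19, and an outer basal layer, marked by KRT5, KRT14 and KRT17. Basal-like tumours express part of the basal programme, often with the epidermal growth factor receptor, EGFR. This receptor tyrosine kinase drives proliferation through the MAPK and PI3K pathways. MDA-MB-468 is known for an amplified EGFR locus and for deletions that remove RB1 and SMAD4.

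The libraries held 16752135, 16973354 and 19770833 reads assigned to genes, as recovered from the deposited values. Normalised counts put the 3 libraries on 1 scale, and 1 read was worth between 0.879 and 1.03 normalised counts. A gene was called detected where each of the 3 libraries held at least 10 recovered reads. A count of 0 allows up to 3 reads, which is 2.64 to 3.10 normalised counts, and that limit covers counting error only. By this rule 13416 of 27315 entries were detected and 9211 were at 0 in every control library. Pairwise Pearson correlations of the log2 of normalised counts plus 1 over the detected genes were 0.994 to 0.995. They are across genes, which are not independent replicates.

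To compare genes, normalised counts were divided by transcript length and scaled to sum to 1000000 in each library, and the result is called the level. The length planned at first was the median over all annotated transcripts of a gene, and it was replaced, after the data were seen, by the median over transcripts linked to RefSeq. Orders and ratios of levels depend on this choice, and detection does not. Among the 19117 protein-coding genes with a length, the median level was 7.23, and it was 22.9 over the 12434 that were detected. The top 10% of detected genes began at a level of 141. Levels over 1000 were reached by 132 detected genes. The 10 highest genes took 4.89% ± 0.0734 of the reads, the 100 highest took 18.0% ± 0.230, and the 1000 highest took 49.6% ± 0.237 (SD, n = 3). The cytosolic ribosomal protein genes took 5.30% ± 0.159 of the reads, with 79 of 80 detected, led by RPS3A at a level of 4651 ± 313.

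The highest level of any gene belonged to FTH1, the heavy chain of the iron store ferritin, at 10249, 9664 and 9123 in replicates 1, 2 and 3, a mean of 9678 ± 563 (SD, n = 3). GAPDH, a glycolytic enzyme, followed at 8027 ± 429.9 and ACTB, the cytoplasmic actin, at 7589 ± 369. The next places went to genes of the skin and inflammation programme. S100A9, a subunit of the calcium-binding protein calprotectin, stood at 6002, 6884 and 5368, and S100A7, the antimicrobial protein psoriasin, at 4851, 5209 and 5349. Replicate 2 held the highest S100A9 level and replicate 3 the lowest, whereas the S100A7 levels lay closer together. MDK, the secreted growth factor midkine, was next with a mean of 4987 ± 671, in replicate 3 at 4248 and in replicate 1 at 5558. S100A8, the partner subunit of calprotectin, had a level of 3475 ± 183, and the ratio of S100A9 to S100A8 was 1.58 to 1.87 in the 3 libraries, and 3.46 with the union of exons. Outside the ribosomal proteins, the other 13 of the 20 highest were EEF1A1, SEC61G, EEF1G, TMSB4X, NPM1, PPIA, CASP14, SLPI, PTMA, CD59, TMSB10, CALR and TUBB. Most of these serve translation, folding or the cytoskeleton, while SLPI is a secreted protease inhibitor, CD59 shields cells from complement, and CASP14 is a caspase best known from cornifying skin. CASP14 had a level of 3271 ± 96.3 and a normalised count of 86769.8, the fourth highest of any protein-coding gene.

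Ranked by normalised count instead, which favours long transcripts, EEF1A1 led with 169329, ahead of ACTB, FTH1, CASP14, GAPDH, TUBB and EGFR. In all, 11 genes stood among the 20 highest by both measures outside the ribosomal proteins. EGFR stood 7th by normalised count, at 54614, 54391 and 56476, and 37th by level of 19117 protein-coding genes. With the planned length it stood 105th by level, with the longest transcript 147th and with the union of exons 101st, so the rank by level given first is the highest of the 4. Of the 20 highest genes by level outside the ribosomal proteins, 9 were among the 20 with the planned length, 18 with the longest transcript and 14 with the union of exons. The highest gene was then ACTB, FTH1 and S100A9 in the same order. HSP90AB1, PABPC1, HSPA8, ACTG1, KRT8, YWHAZ, CANX and SLC44A2 were the other genes that entered the 20 highest by count alone.

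**Figure D1:**
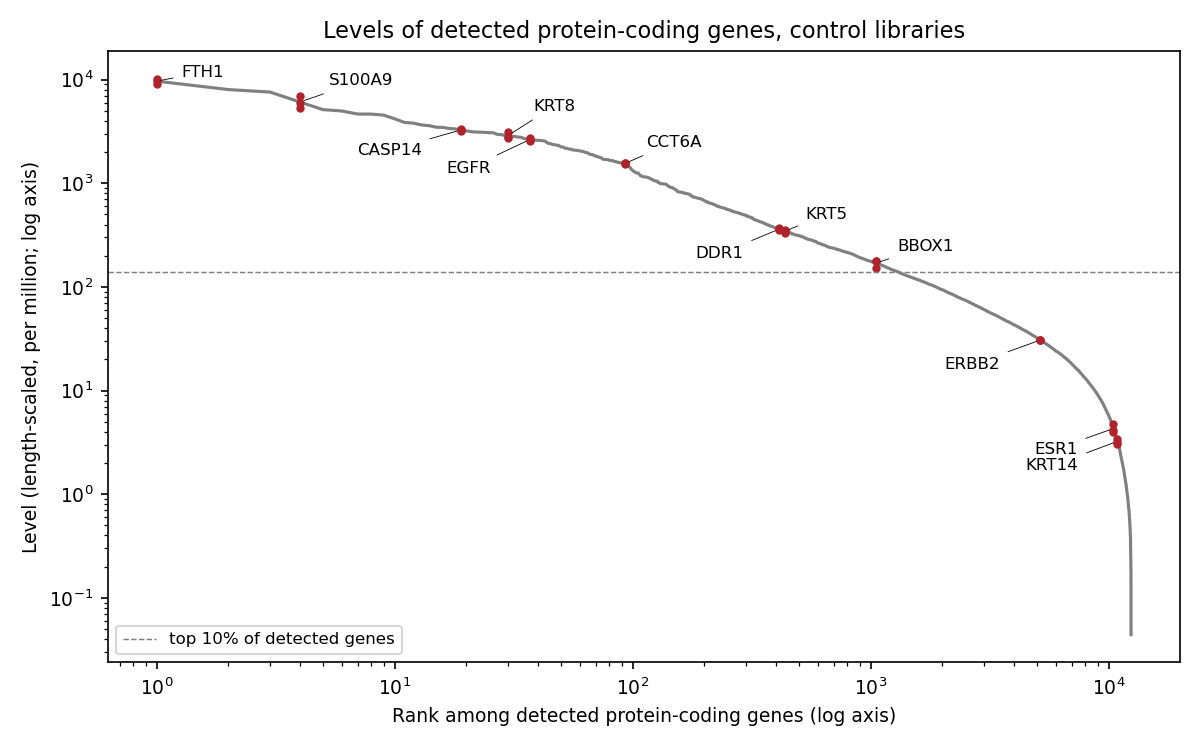
Levels of the detected protein-coding genes in the 3 control libraries, ordered by mean level, both axes on a log scale. The grey line is the mean of 3 libraries, and red points are the single libraries of 12 named genes. EGFR sits among the 40 highest genes at a mean of 2642, KRT5 at 345 lies above the dashed line that marks the top 10% of detected genes, and ESR1 at 4.30 and KRT14 at 3.24 lie far below it.

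Promoter windows of RefSeq on GRCh38.p14, 250 bases before to 50 bases after each listed start, were searched on the gene's strand for the letters TATAAA between 45 and 20 bases upstream, where a TATA box usually lies. Of the detected protein-coding genes, 10180 of 12434 had at least 1 window. In the highest 10% by level the letters were in 41 of 1584 windows (2.59%), against 225 of 14889 (1.51%) over all detected protein-coding genes and 2.33% over all 34961 windows of the table. Genes can have several windows, so windows are not independent and the shares are a description. The median GC content was 64% in the highest 10% and 64.7% over all detected genes, and both had a median of 25 CpG dinucleotides in 300 bases. Of the 20 highest genes outside the ribosomal proteins, 16 had a window and 5 of these held the letters, among them S100A9, S100A7 and, at 1 of its 3 listed starts, S100A8. The sequences below show 30 bases, from 45 to 16 bases upstream. They come from 4 genes with the letters in capitals, from 2 listed starts of EGFR and from a listed start of GAPDH. The first EGFR start lacks the letters and the second holds them. The listed GAPDH start lacks them, which says nothing about any other start of that gene.
S100A9, chr1:153357809-153357838 (plus strand): ccagtcaggagctgccTATAAAtgccgagc
S100A7, chr1:153460667-153460696 (minus strand): agagccaggctgagcctTATAAAggactgc
PPIA, chr7:44796636-44796665 (plus strand): ggggccgaacgtggTATAAAaggggcggga
CALR, chr19:12938564-12938593 (plus strand): tgagaggcgggtgggTATAAAagtgcaagg
EGFR, first listed start, chr7:55018972-55019001 (plus strand): ctcctcctcccgccctgcctccccgcgcct
EGFR, second listed start, chr7:55109794-55109823 (plus strand): aaacaaaaaTATAAAgcccatctccttttg
GAPDH, chr12:6535219-6535248 (plus strand): ggcaccgcaggccccgggatgctagtgcgc
The windows of the S100 genes held few CpG dinucleotides, 5 for S100A9 and 3 for S100A7, and those of PPIA and CALR held 40 and 26. The first EGFR window held 33 and the second 1. A match to these letters is not a measured start or binding site, and the libraries do not show which start was used.

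The labelled line was checked against EGFR, KRT5, RB1 and SMAD4. EGFR, on chromosome 7 at 55019021 to 55211628 (GRCh38), had levels of 2628, 2576 and 2721 in replicates 1, 2 and 3, a mean of 2642 ± 73.5 (SD, n = 3). KRT5, on chromosome 12 at 52514575 to 52520687, had levels of 348, 332 and 355. All 6 values lay above the start of the top 10%. RB1, on chromosome 13 at 48303726 to 48599436, had normalised counts of 10.3, 7.18 and 11.4 and SMAD4, on chromosome 18 at 51028394 to 51085045, had 0, 2.05 and 2.64, and neither was detected. For RB1 the call rests on 1 library, since it had 10, 7 and 13 recovered reads and would count as detected without replicate 2 or at a minimum of 1 read. SMAD4 had no read in replicate 1.

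Genes around RB1, SMAD4 and EGFR were read in map order, over protein-coding genes that reach within 1 Mb of either end of the locus. Around RB1 the genes with few or no reads lay next to each other. ITM2B, a membrane protein gene that starts 71.1 kb before RB1, had normalised counts of 4074, 4309 and 3326. Then came RB1, LPAR6 at 0 in all 3 libraries, RCBTB2 at 1.95, 1.04 and 0.894, and CYSLTR2 at 0. LPAR6, a receptor for lysophosphatidic acid, is annotated within the span of RB1 on the opposite strand. FNDC3A, which starts 672 kb after the start of RB1, was back at 988, 992 and 932. Of the 14 neighbours of RB1, 10 were detected, beside 65% of all protein-coding genes, and MLNR, a motilin receptor gene, was the undetected gene away from it. The level of ITM2B was 765 to 1578 times that of RB1 in the 3 libraries, a ratio that rests on few RB1 reads. Its mean of 1126 became 191 with the longest transcripts and 243 with the union of exons.

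Around SMAD4 the stretch was shorter. ELAC1, a tRNA-processing enzyme that starts 60.4 kb before SMAD4, had 2.07, 0 and 0.881 normalised counts. ME2, a mitochondrial malic enzyme on the far side of ELAC1, had 1282, 1272 and 1291, and MEX3C, an RNA-binding ubiquitin ligase after SMAD4, had 618, 650.3 and 666. The 2 flanking genes were thus detected in every library and the 2 genes between them in none. For SMAD4, 7 of 10 neighbours were detected, beside 65% of all protein-coding genes. MRO and CFAP53, farther from SMAD4, were the other undetected neighbours. The counting strand is not given, so the reads of overlapping pairs such as RB1 and LPAR6 cannot be told apart.

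Around EGFR the picture was the opposite. Of its neighbours in the table, 12 of 13 were detected, and 8 (61.5%) were in the top 10% of detected genes, beside 6.79% of all protein-coding genes. Their median level was 254, against 14.2 around RB1 and 19.3 around SMAD4. SEC61G, a subunit of the protein channel of the endoplasmic reticulum, starts 267 kb before EGFR and had levels of 4532, 4559.7 and 3490.2. It exceeded EGFR in every library, with its lowest value in replicate 3. On the other side, VOPP1, a vesicle protein, had levels of 1595, 1581 and 1633, and LANCL2, a lanthionine synthetase-like protein, had 226, 219 and 261. CCT6A, a chaperonin subunit, had a level of 1554 ± 19.2 and CHCHD2, a mitochondrial protein, 2174 ± 31.0. NIPSNAP2 (plotted under its older symbol GBAS), PSPH and SUMF2, which lie between VOPP1 and CHCHD2, also reached the top 10%, with levels of 550.5, 254 and 619. In the same stretch ZNF713 at 25.0, MRPS17 at 74.7 and PHKG1 at 32.8 did not. NUPR2, beyond CHCHD2, had a level of 9.54, and VSTM2A, a brain gene that starts 477 kb before EGFR, was at 0. Genes such as CCT6A, CHCHD2 and SEC61G serve general cell functions, and no second cell line was measured, so whether these levels go with the amplification was not tested.

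**Figure D2:**
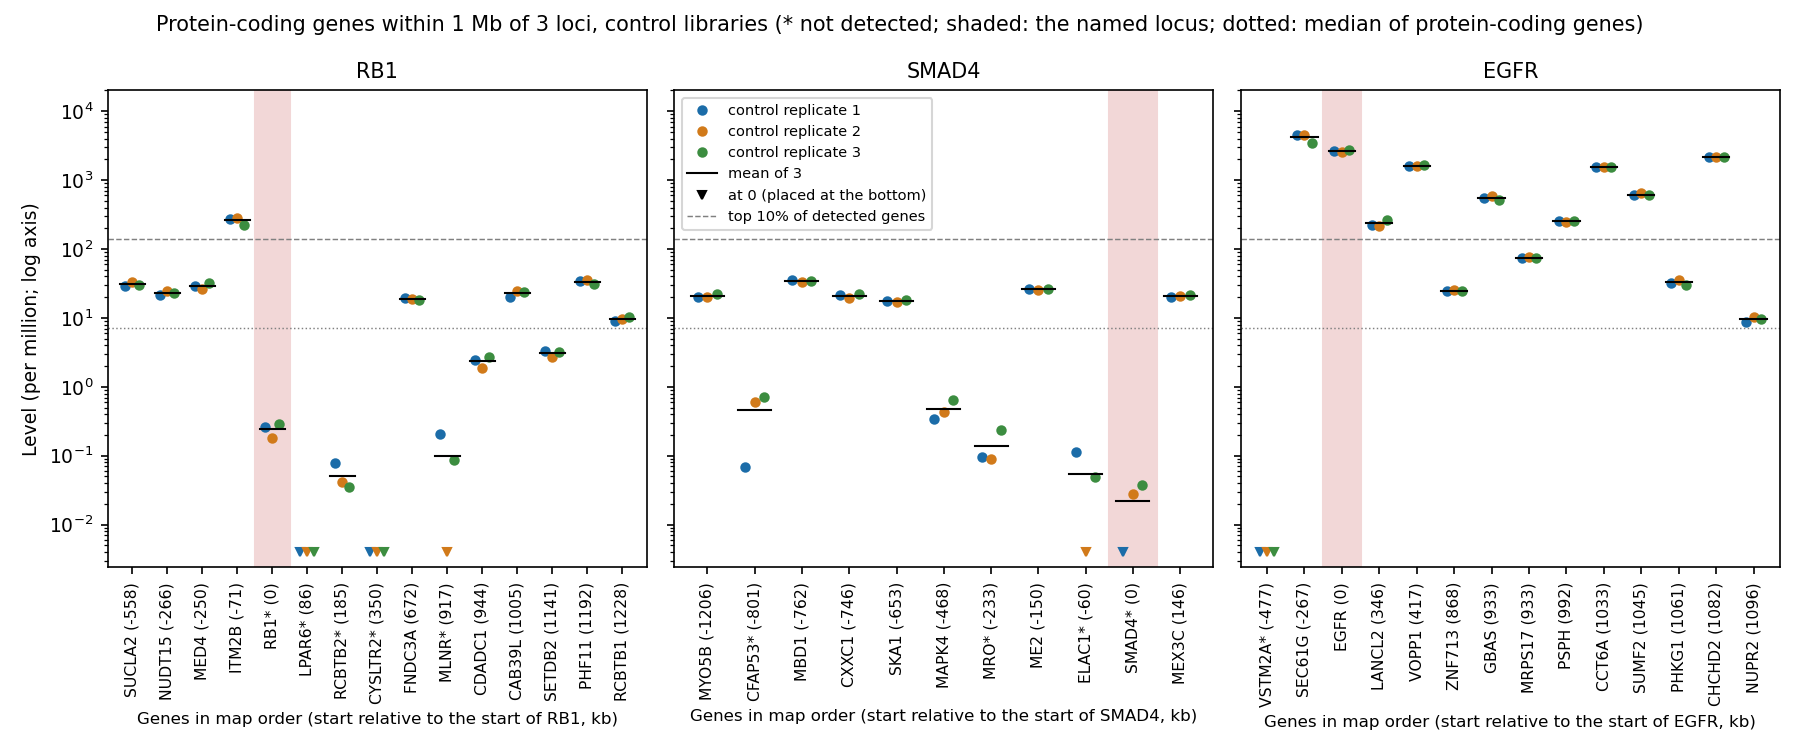
Levels of the protein-coding genes within 1 Mb of RB1, SMAD4 and EGFR in map order, on a log axis, with 1 point for each control library, bars for the mean and triangles for a value of 0. Numbers in brackets give each gene's start relative to that of the named locus in kb. The genes from RB1 to CYSLTR2 and the pair of ELAC1 and SMAD4 lie below a level of 1, whereas 8 neighbours of EGFR lie above the dashed line that marks the top 10% of detected genes.

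The lineage lists gave a mixed picture, with strong luminal keratins, a partial basal set and an epithelial set that was detected throughout. Of the 28 luminal genes 21 were detected, beside 65% of all protein-coding genes, 9 were in the top 10%, beside 6.79%, and 5 were at 0, beside 19.4%. With the planned length, the longest transcript or the union of exons, 8 were in the top 10%. KRT8 had levels of 2810.5, 2749.6 and 3107, KRT19 2052, 1932 and 2312 and KRT18 1569.95, 1421 and 1740.5. Replicate 3 was highest for each of the 3 keratins. CD24, a surface glycoprotein of luminal cells, had a level of 2779 ± 98.8 that overlapped the range of KRT8. KRT7 at 879.9, XBP1, a secretory transcription factor, at 624, MUC1 at 306 and AGR2, a disulphide isomerase, at 243 completed the 8 highest. The receptors of the list differed. PRLR, the prolactin receptor, was in the top 10% at 165 ± 2.90, a level that depends strongly on the length, as its ratio to IFNGR1 below shows. ESR1, the oestrogen receptor, had a level of 4.30 ± 0.383, and PGR, the progesterone receptor, was at 0 along with TFF1, TFF3, TOX3 and ANKRD30A. GREB1, an oestrogen-responsive gene, and SCUBE2 were not detected either. FOXA1 and GATA3, the transcription factors of luminal identity, were detected at 69.0 ± 3.96 and 36.8 ± 1.03.

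Of the 26 basal genes 22 were detected and 5 were in the top 10%, beside 65% and 6.79% of all protein-coding genes. These 5 were EGFR, KRT17, CRYAB, KRT5 and SFN. KRT17 had a level of 521 ± 11.9, CRYAB, a small heat-shock protein, 368 ± 9.09 and KRT5 345 ± 11.7. The partner keratin of KRT5 did not accompany it. KRT14 had levels of 3.21, 3.44 and 3.06, and KRT5 exceeded it 96.6 to 116 times in the 3 libraries, and 450.1 times with the planned length. TP63, the master transcription factor of basal cells, was at 0.831 ± 0.0877, near 18.1 normalised counts, and SOX10, DSG3, COL17A1 and KRT6C were not detected. FOXC1, a factor of basal-like tumours, had 75.3 ± 2.76 and CDH3, P-cadherin, 77.7 ± 2.26. The luminal keratin KRT8 exceeded KRT5 8.07 to 8.76 times, but 3.75 times with the union of exons and 2.14 times with the planned length. In bulk RNA, few cells with a high level and many cells with a low level of a gene cannot be told apart.

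Every one of the 24 epithelial genes was detected, 11 of them in the top 10%, or 6 with the planned length. Of all protein-coding genes 65% were detected and 6.79% were in the top 10%. SPINT2, an inhibitor of membrane proteases, led with 620.4 ± 54.8, followed by EPCAM, an adhesion molecule, with 495 ± 11.6 and CLDN7, a tight-junction claudin, with 376 ± 13.9. CDH1, E-cadherin, had levels of 144, 145 and 146, within a narrow range. Of the 20 mesenchymal genes 9 (45%) were detected, under that 65%, and 0 reached the top 10%. S100A4 at 132 ± 16.6 and FN1, fibronectin, at 76.2 ± 1.23 were highest, and VIM, vimentin, had levels of 13.3, 13.8 and 11.3. CDH1 exceeded VIM 10.5 to 13.0 times. The factors of epithelial-mesenchymal transition ZEB2, SNAI2 and PRRX1 were at 0 and ZEB1 and TWIST1 were not detected. Others were detected, SNAI1 at 6.31 ± 1.02, TWIST2 at 4.39 and FOXC2 at 0.546. N-cadherin, CDH2, was not detected.

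**Figure D3:**
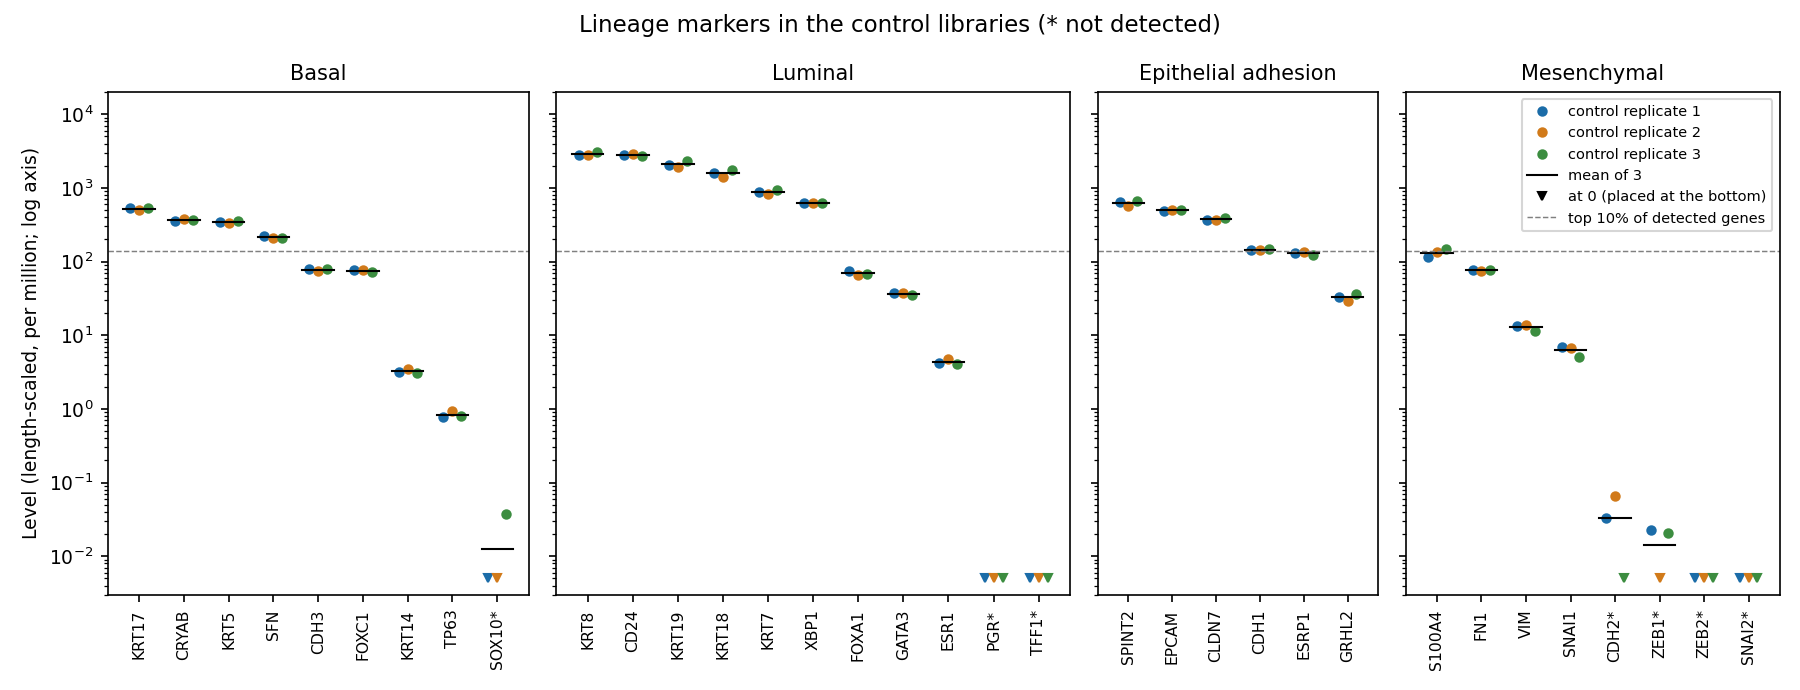
Levels of basal, luminal, epithelial and mesenchymal markers on a log axis, with 1 point for each control library and bars for the mean. Asterisks mark genes that were not detected and triangles mark values of 0. KRT8 (2889) and KRT5 (345) were both high, KRT14 (3.24) and TP63 (0.831) were low, and PGR, TFF1, ZEB2 and SNAI2 were at 0.

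Most lists for other cell types had low summed levels. Of all protein-coding genes 65% were detected. The contractile (57.1%), endothelial (62.5%) and packaging line (50%) lists were not far below that share. Of 7 contractile myoepithelial genes 4 were detected and the summed level was 70.1 to 77.3. MME, a surface peptidase, had 46.3 ± 2.97 and TAGLN, transgelin, 24.3 ± 2.40, both above the median of detected protein-coding genes, while CNN1 was at 0 and ACTA2 had 23.1, 8.69 and 19.8 normalised counts. Of 8 fibroblast genes 2 were detected and the summed level of the list was 2.78 to 4.06. Of 12 leucocyte genes only CSF1R was detected, the summed level was 2.81 to 3.88, and CD3D, MS4A1, LYZ and NKG7 were at 0. The endothelial list had 5 of 8 detected and a summed level of 23.1 to 27.9, with ESAM at 13.1 and CLDN5 at 0. The adipocyte list had 1 of 6 detected and a summed level of 1.43 to 1.94, with ADIPOQ and LEP at 0. A list for the packaging line 293T had 3 of 6 detected and a summed level of 3.93 to 5.19, with NEFL and NEFM at 0. Each range is over the 3 libraries, and the summed level of the luminal list was 11478 to 12493.

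Of 55 keratin genes 20 (36.4%) were detected and 19 were at 0, beside 65% and 19.4% of all protein-coding genes. The 6 in the top 10% were KRT8, KRT19, KRT18, KRT7, KRT17 and KRT5, and the next, KRT23, had a level of 125 ± 8.64. KRT4, a keratin of mucosal linings, at 52.8 and KRT81, a hair keratin, at 52.3 came next with overlapping ranges. Among S100 genes 15 of 20 were detected and 9 were in the top 10%, beside 65% and 6.79% of all protein-coding genes. After S100A9, S100A7 and S100A8 came S100A11 at 2139 ± 42.9 and S100A6 at 968 ± 121, both widely expressed in epithelia. S100B, S100G and S100Z were at 0. S100A7 has a close copy, S100A7A, listed at 23.0, and reads of such pairs may have been shared between them.

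**Figure D4:**
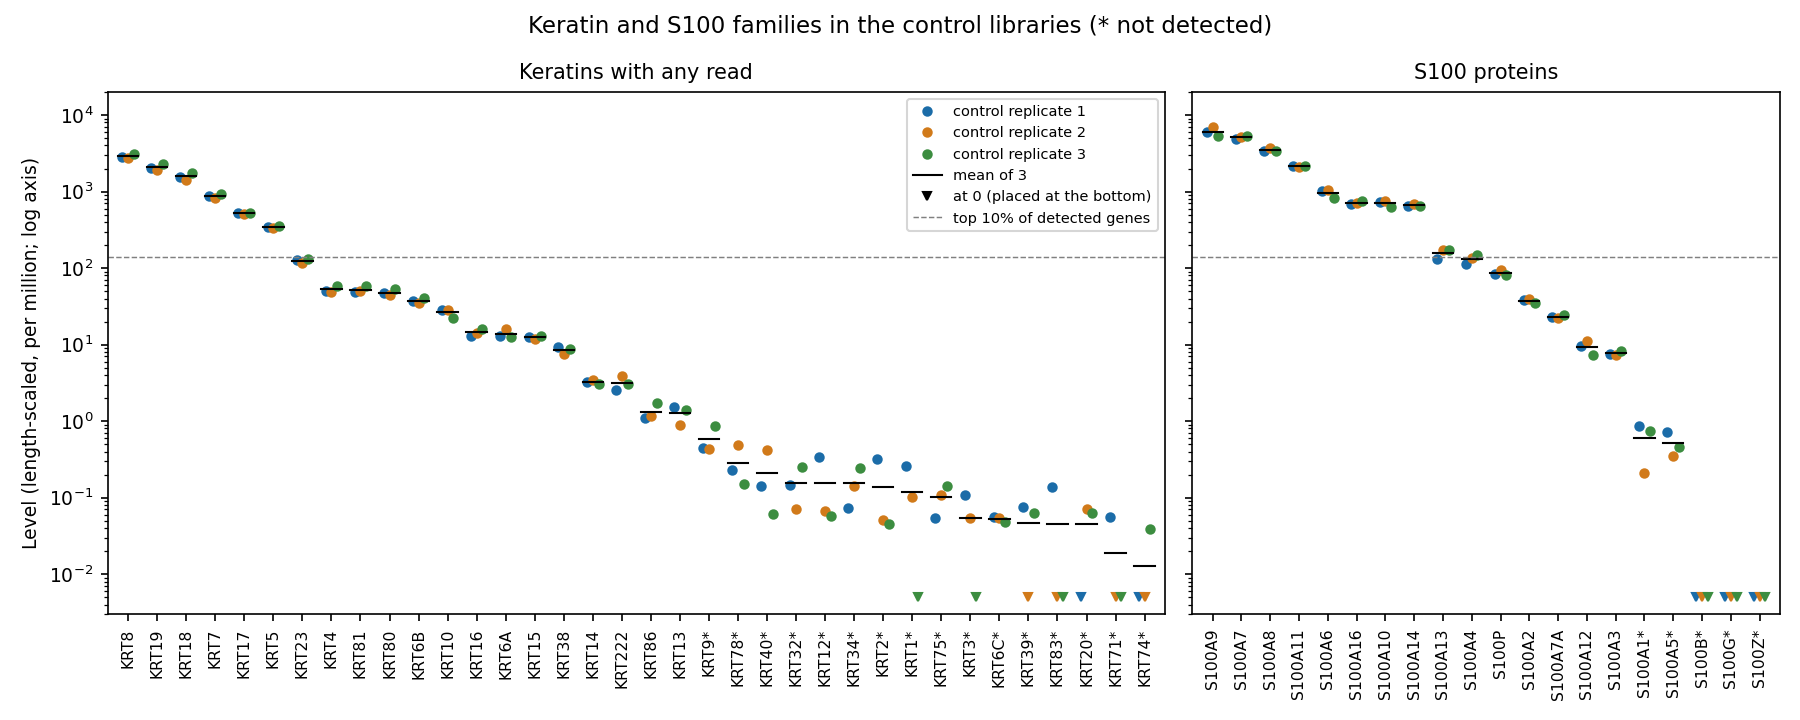
Levels of the keratin genes with any read and of all S100 genes on a log axis, ordered by mean level, with 1 point for each control library and bars for the mean. Asterisks mark genes that were not detected and triangles mark values of 0. The levels fall from KRT8 at 2889 and S100A9 at 6085 to 0 for S100B, S100G and S100Z.

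Among transcription factors of the breast lineages 36 of 40 were detected, beside 65% of all protein-coding genes. EHF and ELF3, epithelial ETS factors, had levels of 586 ± 7.34 and 294 ± 11.1. HMGA1, a chromatin architecture protein, stood between them at 440.5 ± 33.6, and CEBPB and KLF5 followed at 189 and 144. These 5 formed the top-10% members, beside 6.79% of all protein-coding genes. The ranges of the 5 did not overlap. MYC had a level of 119.95 ± 2.28, and SOX9 at 73.6 and TFAP2C at 72.9 overlapped FOXC1 at 75.3. SOX2 was at 0 and TBX3, ZEB1 and SOX10 were not detected.

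EGFR had the highest level of the receptor tyrosine kinases, except with the planned length, where DDR1 exceeded it. Most members of this class are membrane receptors that phosphorylate tyrosine when a ligand binds. Of 58 such genes 41 were detected, 8 were at 0 and 2 reached the top 10%, EGFR and DDR1, beside 65%, 19.4% and 6.79% of all protein-coding genes. With the planned length 4 reached it. DDR1, a collagen receptor, had levels of 368, 355 and 359, and EGFR exceeded it 7.13 to 7.57 times in the 3 libraries. With the planned length the ratio was 0.941, and with the longest transcript of each gene it was 2.14. PTK7, a Wnt co-receptor, had a level of 123 ± 7.93, MET, the receptor of hepatocyte growth factor, 92.6 ± 3.76 and RYK 87.6 ± 2.18, with MET and RYK overlapping. In the EGFR family, ERBB3 was at 72.9 ± 3.73, ERBB2 at 30.7 ± 0.336 and ERBB4 at 0. EGFR exceeded ERBB2 82.9 to 89.5 times, but 24.7 times with the longest transcripts, 41.7 with the union of exons and 48.8 with the planned length. INSR, the insulin receptor, at 39.5 exceeded IGF1R at 4.23, and AXL, a kinase of mesenchymal-like lines, was not detected.

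Of 11 ligand genes of the EGFR family 7 were detected and 0 reached the top 10%, shares near the 65% and 6.79% of all protein-coding genes. TGFA, transforming growth factor alpha, had levels of 53.0, 52.9 and 56.3, and it was followed by EPGN at 7.40, EGF at 4.81 and BTC at 4.69. AREG, amphiregulin, a common autocrine ligand in breast epithelium, had 1.04, 0 and 1.76 normalised counts and was not detected, and EREG had a level of 0.276 ± 0.0234. The neuregulins NRG1 and NRG3 were at 0.

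**Figure D5:**
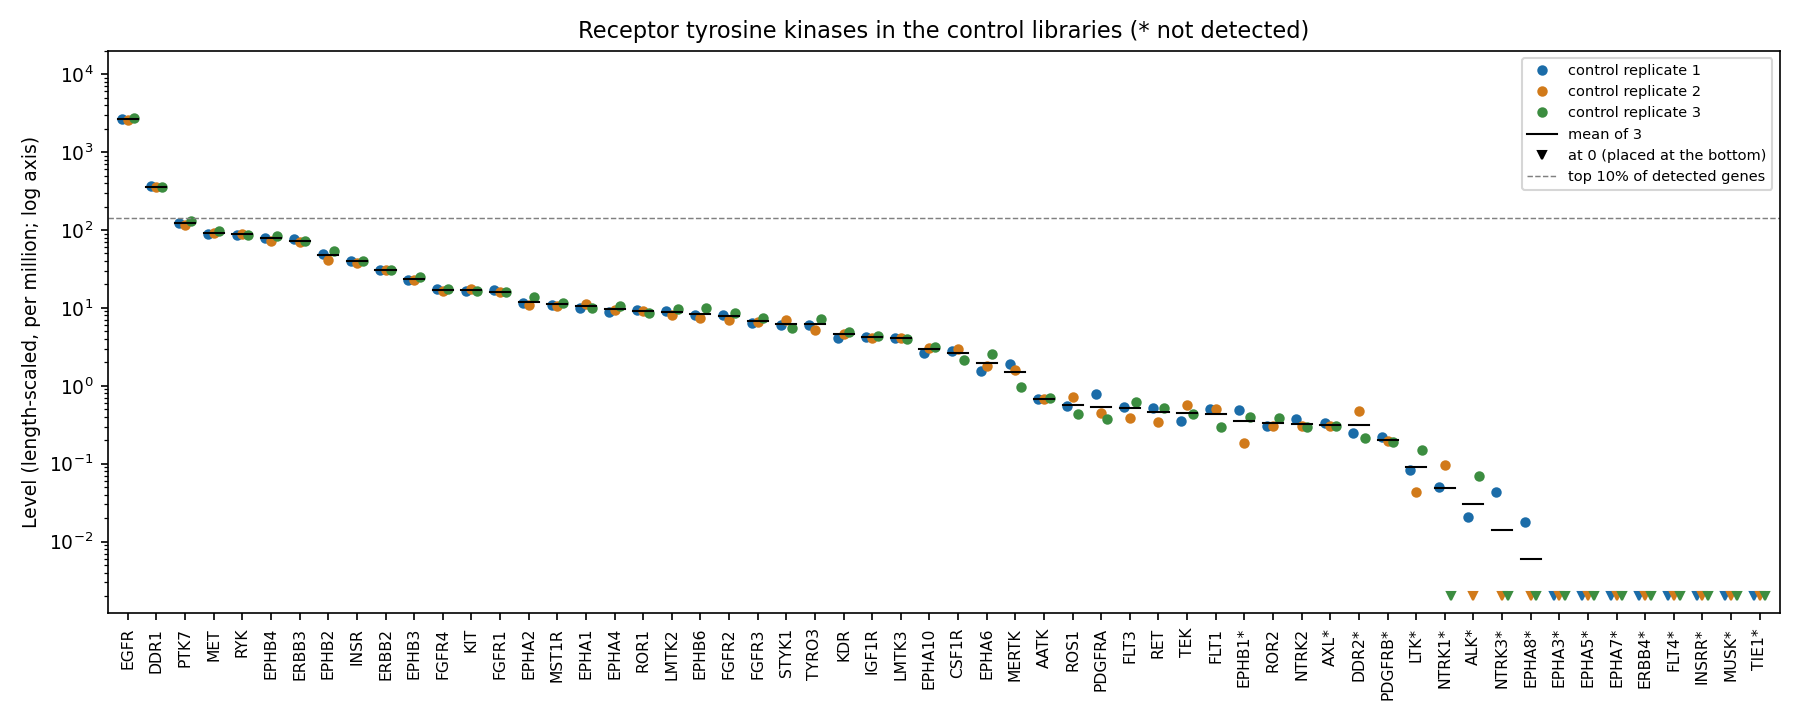
Levels of 58 receptor tyrosine kinase genes on a log axis, ordered by mean level, with 1 point for each control library and bars for the mean. Asterisks mark genes that were not detected and triangles mark values of 0. EGFR at 2642 and DDR1 at 361 lie above the dashed line of the top 10%, and ERBB4 and 7 others are at 0.

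Nuclear receptors, transcription factors that bind hormones and lipids, were detected in 30 of 48 cases, near the 65% of all protein-coding genes. None reached the top 10%, which held 6.79% of all protein-coding genes. NR2F6, an orphan receptor, led with 105 ± 8.90, followed by RXRA, the common partner of many receptors, at 66.9 ± 4.50. The glucocorticoid receptor NR3C1 had 48.9 ± 1.60, more than ESR1 at 4.30, and ESR2 was not detected. Of 67 receptors of cytokines and the TGF-beta family 49 (73.1%) were detected, also near that 65%. IFNGR1, the ligand-binding chain for interferon gamma, had levels of 439, 457 and 443, and PRLR, the prolactin receptor, had 162, 167 and 166. With the longest transcript length the ratio of IFNGR1 to PRLR rose from 2.71 to 16.3, since PRLR has long annotated forms. OSMR, the oncostatin M receptor, had 79.4 ± 1.57, whereas IL6R was not detected.

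Receptors of developmental pathways were led by NOTCH3, at 152 ± 13.2, which was the top-10% member among 21 of 26 detected. Of all protein-coding genes 65% were detected. LGR4, an R-spondin receptor, had 81.7 ± 2.30, and its stem-cell relative LGR5 was not detected. G protein-coupled and chemokine receptors were detected in 28 of 55 cases (50.9%), beside the same 65%. ADGRG1, an adhesion receptor, led with 302 ± 22.9, and the chemokine receptors CXCR1 to CXCR6 that were listed, CXCR4 included, were at 0 or not detected.

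Of 41 surface proteins that serve as antibody targets or immune ligands 35 were detected, 12 of them in the top 10%. Of all protein-coding genes 65% were detected and 6.79% were in the top 10%. CD59 had a level of 3113 ± 153, but 373 with its longest transcript. CD44, a hyaluronan receptor, had 1288 ± 53.1 and VTCN1, the checkpoint ligand B7-H4, 313 ± 8.03. CD274, which encodes PD-L1, had 16.9, 10.8 and 21.9 normalised counts, at the edge of detection. Of 30 antigen-presentation genes 25 were detected, beside the same 65%. B2M, the shared light chain of class I molecules, had 2575 ± 273. Of the class II pathway, CD74, the invariant chain, had 29.1, HLA-DMA 20.8, HLA-DMB 6.29, the activator CIITA 3.68 and HLA-DPA1 3.37, and HLA-DRA, HLA-DRB1, HLA-DPB1 and HLA-DQA1 were not detected. HLA genes differ strongly between people, and how the counting treated this is not given, so their levels are uncertain.

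The genes that act with RB1 and SMAD4 were present. RB1 encodes the brake on E2F factors at the G1 to S transition. Of 29 genes of the RB pathway 27 were detected, beside 65% of all protein-coding genes, the exceptions being RB1 and CCND2. CDKN2A, which encodes the CDK4 inhibitor p16, had levels of 303, 303 and 264, with 332 by its longest transcript and 156 by the union of its exons. TFDP1 exceeded CDKN2A with the union of exons and with the planned length. Its neighbour CDKN2B, the inhibitor p15, had 45.03 ± 1.31. CDK4, the target of both, had 128 ± 5.39 and CCND1, its cyclin, 36.2 ± 2.87. The RB1 relatives RBL2, p130, and RBL1, p107, had 66.8 ± 0.529 and 17.8 ± 0.655. Among E2F factors, E2F4 at 50.1 was highest, and E2F1, E2F2 and E2F3 lay between 37.6 and 43.6 with overlapping ranges.

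SMAD4 encodes the common partner of receptor-activated SMAD proteins. Of 22 genes of SMAD signalling 20 were detected, all but SMAD4 and SMAD9, beside 65% of all protein-coding genes. SMAD1, an effector of bone morphogenetic proteins, had 199 ± 2.28, SMAD3 62.2 ± 1.38 and SMAD2 17.2 ± 0.880. The receptors TGFBR2 and TGFBR1 had 25.7 ± 2.76 and 8.42 ± 0.534, and of the ligands TGFB2 had 59.1 ± 3.54 and TGFB1 36.1 ± 4.79. ID3, a target of bone morphogenetic proteins, had 111 ± 8.27. Of 25 genes of PI3K signalling 23 were detected, beside the same 65%. RHEB, the activator of mTORC1, led with 226 ± 22.7, and AKT1 had 114 ± 10.4. Among catalytic subunits PIK3CB, at 40.9 ± 1.17, exceeded PIK3CA, at 7.65 ± 0.5002, and the leucocyte subunit PIK3CG was not detected.

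Across 62 tumour suppressor genes 56 were detected, beside 65% of all protein-coding genes. The 6 that were not were RB1, SMAD4, LRP1B, TBX3, PTPRD and DCC. All 27 oncogenes known to be amplified in breast cancers were detected, and 4 were in the top 10%, EGFR, YWHAZ at 1622, MCL1 at 215 and TOP2A at 179. Of all protein-coding genes 6.79% were in the top 10%. YWHAZ exceeded EGFR with the planned length, the longest transcript and the union of exons. ERBB2, CCNE1 and GRB7 had overlapping ranges near 30.5.

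A list of iron, acute-phase and secreted genes had a summed level of 20913 to 22409.8, of which FTH1, a cytosolic iron store, made 9678. Of its 43 genes 33 were detected and 13 were in the top 10%, beside 65% and 6.79% of all protein-coding genes. After FTH1 and SLPI, PI3, the protease inhibitor elafin, had 1959.9 ± 116, and LCN2, an iron-siderophore binder, had levels of 1745, 1826 and 1769.8. AZGP1, a zinc-binding glycoprotein, had 1440.2 ± 185, and complement C3 had 566 ± 39.7. The ferritin light chain FTL had 547 ± 2.83, and FTH1 exceeded it 16.6 to 18.7 times, but 10.7 times with the union of exons and 33.3 with the planned length. Among cytokines, CCL28 had 88.0, CXCL8 72.5, CXCL16 53.3, CXCL1 23.1, LIF 16.4 and IL32 2.30. IL6 and IL1A were not detected and IL1B was at 0. The plasma and acute-phase genes were split. CP at 424, SAA1 at 360, CFB at 339, SERPINA3 at 314 and SAA2 at 159 were in the top 10%. SERPINA1 was low at 1.19, LBP and SERPINA5 were not detected, and the milk and plasma genes LTF, HP, ORM1 and ORM2 were at 0.

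Housekeeping groups were high as a whole. Of all protein-coding genes 65% were detected and 6.79% were in the top 10%. Of 20 glycolytic genes 19 were detected and 12 were in the top 10%, led by GAPDH, ENO1 at 2038, LDHA at 1859 and ALDOA at 1659. The brain isoform ALDOC was not detected. Translation factors reached the top 10% in 18 of 21 cases, and the muscle and nerve isoform EEF1A2 was not detected. Cytoskeletal genes did so in 21 of 26 cases.

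BBOX1, the gene targeted in the rest of the series, encodes the last enzyme of carnitine synthesis, gamma-butyrobetaine hydroxylase. In the control cells it had levels of 176, 178 and 154 in replicates 1, 2 and 3, in the top 10%, at normalised counts of 2703, 2785 and 2359.8. Of 8 genes of carnitine synthesis and uptake 7 were detected, beside 65% of all protein-coding genes. TMLHE, the first enzyme of the route, had 24.3 ± 0.113, ALDH9A1, an enzyme in its middle, 71.6 ± 0.646 and the carnitine transporter SLC22A5 15.5 ± 1.46. BBOX1 exceeded these 3, and SHMT2, a mitochondrial enzyme of serine and glycine exchange, was higher at 224 ± 6.56. With the union of exons BBOX1 exceeded SHMT2.

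The 3 libraries differed little. Among the 10889 genes with a mean normalised count of at least 100, the ratio of the highest to the lowest library had a median of 1.12 and a 95th percentile of 1.34. It exceeded 1.5 for 100 genes (0.918%) and 2 for 0. The largest ratio was 1.86 for HOTAIRM1, an antisense RNA of the HOXA cluster, with counts of 223, 212 and 120.3. HIRIP3, RAB11FIP3, CYP1A1, PLA2G2A, C1orf35, NPIPB5, NDUFS7, C1orf122 and MRPS12 followed. Of the 100 genes, 21 were highest in replicate 1, 39 in replicate 2 and 40 in replicate 3. CYP1A1, a detoxifying enzyme induced by aryl hydrocarbons, had 126, 145 and 226 and PLA2G2A, a secreted phospholipase, 231, 205 and 129. Over 10806 genes, the log2 ratio of a replicate to the mean of the other 2 had a Spearman rho with transcript GC content of 0.0744 for replicate 1, -0.400 for replicate 2 and 0.315 for replicate 3. These values are across genes of shared libraries and carry no test, and the part of GC content in the single ratios was not tested.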

How the data were processed

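Values in the deposited table are log2-like, and the authors named them variance-stabilised and batch-corrected, with the correction itself not described. Per the submitters' processing notes, the build was hg19 and the tools were DESeq2, Salmon, STAR and cutadapt, with versions, settings and strand not given. A log2 fold change and an adjusted p-value from the authors fill 2 further columns, and neither was used. Only the 3 control columns were analysed, with no comparison between groups and no test. All columns share the floor 5.02, so each value could be turned back into a normalised count that still carries any such correction, and the steps between low values gave what 1 read is worth. Between 0.5 and 20.5 recovered reads, 71.7% to 78.7% of values per library were whole within 0.05. Detection asked for 10 reads with a tolerance of 0.5. On simulated data of 27315 genes the inversion made 0 wrong detection calls in each library. The simulation used whole counts, the same formula and no batch correction, so it checked the arithmetic only. It cannot show how far the detection calls hold on the deposited values.

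Levels divide by the median length of a gene's protein-coding transcripts linked to RefSeq in GENCODE release 29 (GRCh38), leaving out genes under 200 bases. The planned length was the median over all annotated transcripts. It was replaced after the data were seen, because short partial transcripts enter that median, and it is kept as an alternative. Of the entries, 25473 matched a gene model (24689 by symbol, 417 by RefSeq symbol, 367 by synonym), 1815 did not, and 27 had dates for names and are not named. Entries without a length held 0.876% to 1.03% of reads. The members and gene lists were chosen with earlier results of these data known. Named were EGFR, KRT5, RB1, SMAD4 and BBOX1, the 20 highest genes by level and by count outside ribosomal proteins, the 5 highest ribosomal ones, up to 8 per list with undetected defining members, neighbours within 1 Mb, and the 10 most variable genes. Other genes, such as ESR1, KRT14, TP63, ERBB2, CDKN2B, RBL1, RBL2, PIK3CA, CD274 and SLFN11, were added after their values were seen. Some genes that the rule covers are not reported here. The software was numpy 2.4.6, scipy 1.17.1, pandas 2.3.3 and matplotlib 3.10.9 on Python 3.11.15.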

Additional observations from a re-analysis of the deposited data

How the results depend on the processing

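Leaving out 1 library at a time gave 13506 to 13557 detected genes, 17.8% to 18.1% of reads for the 100 highest genes and 5.21% to 5.36% for the ribosomal proteins, and moved none of the list counts or gene levels beyond its limit. Detected genes numbered 15712 at 1 read and 11668 at 50 reads. On length-scaled levels instead of reads, the 100 highest genes held 26.6% and the ribosomal proteins 12.4%, since short transcripts then weigh more. Lowering the mean normalised count to 30 raised the share of genes with a ratio over 1.5 from 0.918% to 3.49%. In the highest 10% by normalised count, 2.62% of promoter windows held TATAAA. Of 43 list counts, 3 moved over 1.5 times at 1 read and 8 at 50 reads, all of them lists with few detected members, among them fibroblast, adipocyte and packaging line at 0 with 50 reads. The length set the levels most. Of 359 named detected genes, 35 moved over 1.5 times with the longest transcript, 176 with the union of exons and 210 with the median over all transcripts. That median was the length planned at first and was replaced after the data were seen. Under the stricter limit by which leaving out 1 library moved none, 315, 332 and 333 moved in the same order, while the geometric mean moved 0. The order of genes within a factor of 1.5 is therefore uncertain, and wider gaps can reverse too. The ratio of EGFR to DDR1 went from a mean of 7.32 to 0.941 with the median over all transcripts. No paired analysis was possible because 1 group was described and no result comes from a test. Low counts, as for RB1 and SMAD4, are limited by depth, and protein features were not analysed here.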

Other observations

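Values of gene families outside the lists above follow, beside 65% detected among all protein-coding genes. Of 23 cadherin genes 4 were detected, CDH1, CDH3, CDH24 at 12.6 and CDH18 at 1.91. Of 24 claudins 12 were detected, led by CLDN7 at 376, CLDN10 at 218 and CLDN1 at 166, and CLDN7 exceeded CLDN3 6.56 to 7.53 times in the 3 libraries and 14.5 times with the planned length over all transcripts. Of 16 kallikrein genes, secreted proteases of skin and glands, 6 were detected, with KLK5 at 263 ± 1.35 and KLK6 at 76.4 ± 6.10, while KLK2 and KLK3 were at 0. MUC1 and MUC15, at 90.01, were the highest of 5 detected among 17 mucins. Of 35 serpins 15 were detected, led by SERPINA3 at 314 ± 31.3, an acute-phase protease inhibitor, whereas the squamous serpins SERPINB3 and SERPINB4 were not detected. Integrins were led by ITGB1 at 237 and ITGB6 at 116, with 17 of 27 detected, laminins by LAMA4 at 82.7 and LAMB2 at 79.0, with 9 of 12, and ephrins by EFNA1 at 199, with 7 of 8.

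Of 27 cancer-testis and fetal genes 8 were detected and 10 were at 0, beside 65% and 19.4% of all protein-coding genes. MAGEA6 had a level of 121 ± 9.06 and MAGEA3 79.3 ± 7.26, near-identical copies whose reads may have been shared. IGF2BP3, a fetal RNA-binding protein, had 69.7 ± 2.48, and PRAME and LIN28A were not detected. Of 28 genes of drug efflux and detoxification 22 were detected, beside the same 65%. AKR1C2, an aldo-keto reductase with near-identical relatives, had 886 ± 38.1 and GSTP1, a glutathione transferase, 191 ± 11.8, while ABCG2 and GSTM1 were at 0. SLFN11, linked to the response to DNA-damaging drugs, had 35.3 ± 1.77.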
